A study of Mus musculus with 36 samples.

Results

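MicroRNAs (miRNAs) were compared between naive CD4 T cells and T helper 2 (Th2) cells of CD4-Cre control mice. The comparison took the libraries titled nT Cre A to C and TH2 Cre A to C, 3 naive and 3 Th2 libraries, which are 6 of the 36 libraries of the series. All 6 carry the labelled genotype CD4Cre;R26LSLeYFP on the strain C57BL/6J, so that both the naive and the Th2 group have the Cre transgene and the reporter allele. In such mice the Cd4 promoter drives Cre recombinase in developing T cells, and Cre switches on a yellow fluorescent protein at Rosa26. The cells were spleen T cells sorted by flow cytometry for CD4 and TCRb, and the labels give no age. The naive group is labelled nT. The sample labels give the Th2 group 5 days of differentiation culture, whereas the series text names day 7. The libraries were made from total RNA, and the labels state single-end and the series text paired-end reads.

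The same experiment held AGO2 knockout cells (CD4Cre;R26LSLeYFP;AGO2f/f, 4 naive and 4 Th2 day 5 libraries), which lack the Argonaute protein AGO2 in T cells. Another experiment of the series held wild-type (WT) cells without Cre in the labels (4 naive and 4 Th2 day 7 libraries). The labels do not say that libraries A, B and C come from separate animals, so the spread behind a p-value may be technical. The edgeR p-values for the change in Cre cells use a spread estimated over all 14 libraries of the AGO2 experiment, knockout libraries included. No miRNA count shows the Cre genotype, which was therefore not checked. The libraries are bulk samples, in which fewer cells of a type and less RNA per cell cannot be told apart.

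A miRNA is an RNA strand cut by Drosha and Dicer from a hairpin and loaded into an Argonaute protein. It pairs through its seed, bases 2 to 8 from the 5′ end, with sites in target mRNAs and lowers their output. Each hairpin can give a 5p and a 3p strand, of which usually a single strand is kept. When a naive CD4 T cell is activated it enters the cell cycle, and under interleukin 4 and the factor Gata3 it becomes a Th2 cell, the helper type that drives responses to worms and allergens. miR-150 and miR-181a are known as miRNAs of resting or immature lymphocytes, and miR-155, miR-146a, miR-21a and the miR-183-96-182 cluster as miRNAs of activated T cells.

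The mature sequences on which the results turn are given 5′ to 3′ with the seed in capitals. They are from RefSeq on GRCm38.p6. The miRNAs that were higher in Th2 cells and are described in detail were these.
miR-182-5p: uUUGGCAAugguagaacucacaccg
miR-183-5p: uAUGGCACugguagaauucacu
miR-148a-3p: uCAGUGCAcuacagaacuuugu
miR-210-3p: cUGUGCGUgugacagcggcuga
miR-212-5p: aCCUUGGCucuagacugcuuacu
miR-155-5p: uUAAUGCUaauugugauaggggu
miR-146a-5p: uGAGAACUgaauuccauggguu
miR-21a-5p: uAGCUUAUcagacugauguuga
miR-21a-3p: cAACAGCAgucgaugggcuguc
miR-24-3p: uGGCUCAGuucagcaggaacag
miR-27a-3p: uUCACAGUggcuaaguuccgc
miR-27b-3p: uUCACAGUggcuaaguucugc
miR-99b-5p: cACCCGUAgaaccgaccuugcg
miR-351-5p: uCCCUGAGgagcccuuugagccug

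The miRNAs that were lower in Th2 cells and are described in detail were the following. miR-150-5p, miR-30d-5p, miR-669a-5p and miR-5099 are named only. miR-26a-5p and miR-26b-5p share a seed.
miR-26a-5p: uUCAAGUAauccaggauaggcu
miR-26b-5p: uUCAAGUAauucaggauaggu
miR-150-3p: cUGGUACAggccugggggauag
miR-181a-5p: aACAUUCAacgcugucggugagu
miR-181a-2-3p: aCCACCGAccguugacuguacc
miR-92a-3p: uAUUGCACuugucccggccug
miR-30e-5p: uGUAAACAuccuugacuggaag
miR-142a-5p: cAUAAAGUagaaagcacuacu

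Members of the let-7 family are shown with miR-3962 and miR-25-3p because near-identical sequences bear on how their counts are read. let-7d-5p, let-7a-5p and let-7g-5p share a seed, miR-25-3p has that of miR-92a-3p, and the first 17 bases of miR-3962 are bases 3 to 19 of let-7g-5p.
let-7d-5p: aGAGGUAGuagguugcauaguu
let-7a-5p: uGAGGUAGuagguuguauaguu
let-7g-5p: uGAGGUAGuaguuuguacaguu
miR-3962: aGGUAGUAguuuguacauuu
miR-25-3p: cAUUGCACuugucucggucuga

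Depth differed between the groups and bounds every value below. The counts assigned to miRNAs numbered 8643, 596 and 2156 in naive libraries A, B and C, and 55795, 58357 and 39794 in the Th2 libraries of the same letters. Levels are given as counts per 1000000 miRNA counts after TMM normalisation (CPM). A count of 0 allows up to 3 counts, which equals 403, 3029.6 and 1094 CPM in naive libraries A, B and C and 42.4, 35.1 and 76.7 CPM in the Th2 libraries. Over a whole group, 3 counts equal 268 CPM in naive and 15.4 CPM in Th2 cells. Such floors and all counting intervals cover counting error only. The deposited entries named STD, which name no miRNA and which the labels do not explain, took 68.2, 90.5 and 85.5% of the counts of the naive libraries and 43.3, 36.7 and 41.7% of the Th2 libraries.

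In the naive libraries 183, 73.0 and 123 miRNAs had a count, and in the Th2 libraries 403, 420 and 354. Brought by calculation to 596 counts, the depth of naive library B, the naive libraries gave 63.5, 73.0 and 76.2 miRNAs and the Th2 libraries 85.8, 90.1 and 84.0. At that common depth the groups did not overlap, with 70.9 ± 6.63 against 86.6 ± 3.16 miRNAs (SD, n = 3 and 3; two-sided exact permutation p = 0.1, the smallest that 3 against 3 allows). miR-5099 took 52.4, 24.5 and 18.4% of miRNA counts in the naive libraries and 13.5, 9.85 and 10.9% in the Th2 libraries, so naive library A was made up of this entry to a larger extent than any other library. The 596 counts include this entry, so fewer counts of other miRNAs were drawn from the naive libraries. Whether the groups differ in detected miRNAs without it was not tested.

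**Figure D1:**
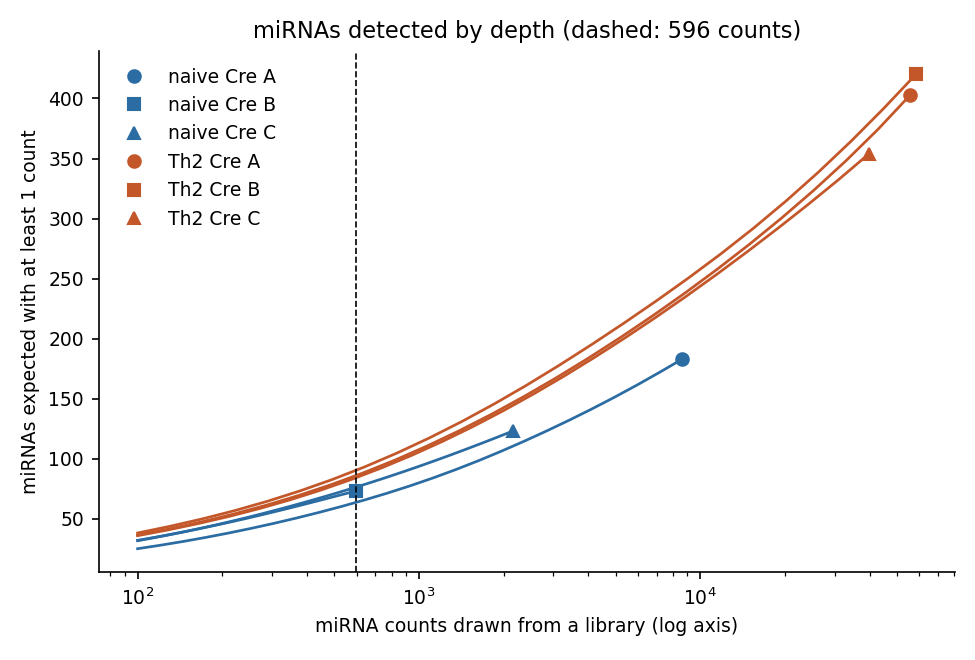
Number of miRNAs expected with at least 1 count (vertical axis) when a given number of miRNA counts is drawn from a library (horizontal axis, log scale), with a curve per library that ends in a marker at its own depth. At the dashed line of 596 counts, miR-5099 included, the 3 Th2 curves lie at 85.8, 90.1 and 84.0 miRNAs and the naive curves at 63.5, 73.0 and 76.2.

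The labelled cell type was checked against marker miRNAs. The miRNAs miR-142a, miR-150-5p and miR-181a-5p of lymphocytes were counted in both groups, at a summed 15148 to 38804 CPM in naive and 7967 to 10741 CPM in Th2 libraries. miR-223-3p and miR-223-5p, the defining myeloid miRNAs, had 0 counts in all 6 libraries. Red cell and platelet markers had 0 counts in naive libraries and 2 in Th2 libraries over 5 miRNAs, with miR-451a at 0 throughout. Endothelial and stromal markers had 7 naive and 13 Th2 counts over 8 miRNAs, a summed 365 to 1010 CPM in naive and 42.4 to 128 CPM in Th2 libraries, which did not overlap. Of these, miR-145a, miR-199a-3p, miR-199b-3p and miR-214-3p were at 0 in all 6 libraries. Epithelial markers had 5 and 28 counts over 8 miRNAs, at 0 to 1094 CPM in naive and 113 to 205 CPM in Th2 libraries. Liver, muscle and neuron markers had 1 and 4 counts over 6. The part of endothelial and stromal cells in the decreases reported below was not tested.

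The question of the comparison was which miRNAs change when naive Cre cells become Th2 cells. Of the 98 miRNAs with enough counts to test, 55 were called (56.1%) by edgeR's quasi-likelihood test at an adjusted p under 0.05. 36 were higher in Th2 cells (36.7%) and 19 were lower (19.4%). The higher calls include 4 miRNAs with 0 naive counts and 9 with 1 to 3. These needed counts from other groups to be tested and could hardly be called lower, which bears on both shares. The leading increases with more than 3 naive counts were in miR-6240, miR-148a-3p, miR-210-3p, miR-183-5p, miR-6236 and miR-182-5p, and the leading decreases in miR-181a-2-3p, miR-150-3p and miR-150-5p. Whether the entries miR-6240 and miR-6236 are true miRNAs was not tested. The CPM of the 3 Th2 libraries did not overlap that of the naive libraries for 54 of the 98 (55.1%), which include 32 of the 36 higher and 14 of the 19 lower calls. The median log2 fold change over the 98 was 0.69, or 0.64 with the 5 miRNAs of 0 naive counts set to the bound that 3 naive counts give.

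A change is measured against the rest of the miRNAs in its library, and the zero of the scale depends on the scaling. The median log2 fold change was 0.69 with TMM, 0.85 with library size alone, 0.39 with DESeq2 size factors, 0.37 with TMMwsp and 0.14 when miR-5099 was left out, which gave 24 higher and 23 lower calls. Scaled to the STD entries it was 3.30, with 82 higher and 2 lower calls. Under that scaling 13 of the 19 decreases in Th2 cells had a positive log2 fold change, and only miR-150-3p and miR-181a-2-3p stayed called as lower. All 36 higher calls stayed called. The STD scaling raised the log2 fold changes and so was no test of an increase. The decreases below are therefore decreases relative to the other miRNAs. 17 calls, 15 higher and 2 lower, passed in the same direction in every alternative that gave a value, and 24 (15 higher and 9 lower) in every alternative other than the STD scaling. Among the 17, miR-351-5p gave a value in 16 of 18 alternatives, and miR-298-5p and miR-181a-2-3p in 17. With the Th2 libraries thinned to the naive depths neither miR-351-5p (0 naive counts) nor miR-298-5p (2 naive counts) could be tested.

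**Figure D2:**
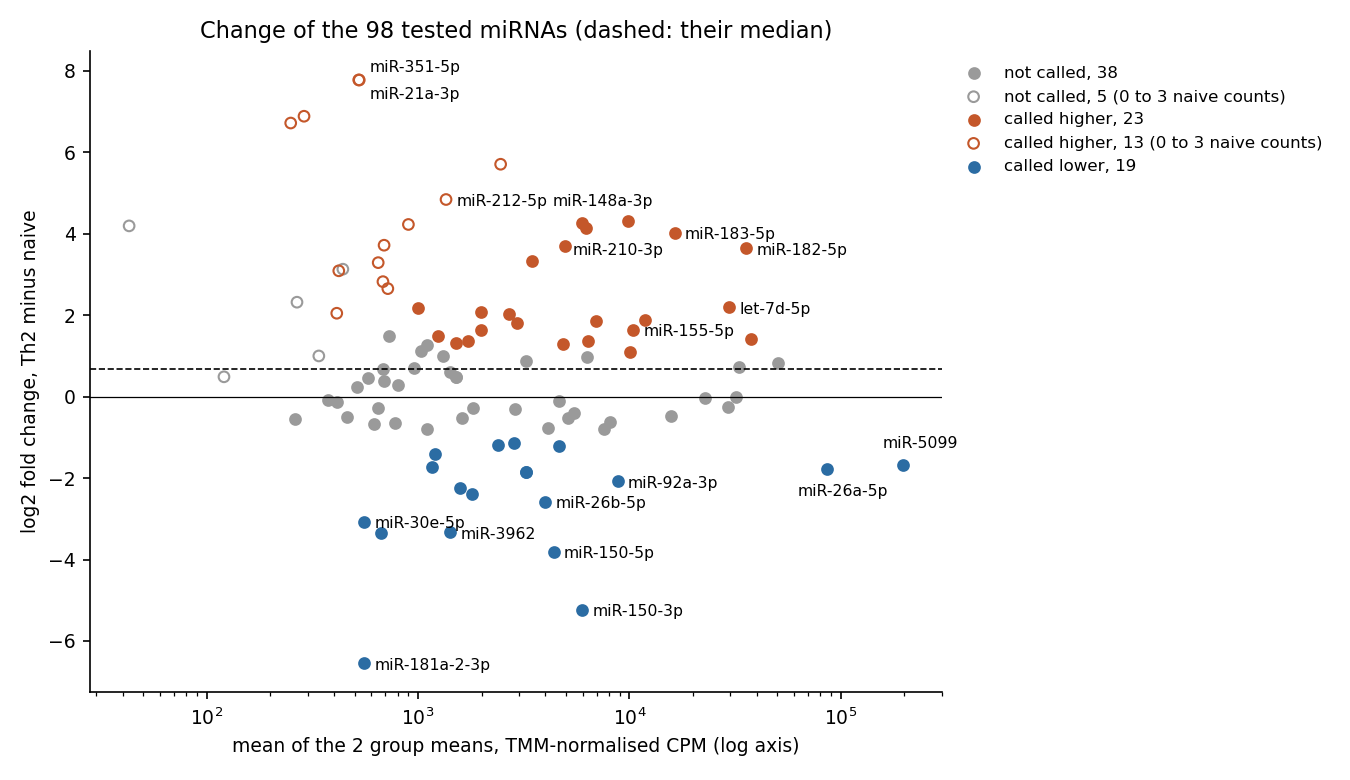
Log2 fold change from naive to Th2 cells (vertical axis) of the 98 tested miRNAs against the mean of the group means in CPM (horizontal axis, log scale). Each point is a miRNA, coloured by call, open where the naive libraries held 0 to 3 counts in all, and the dashed line is the median of 0.69. 13 of the 36 higher calls are open points, and no lower call is. Open points needed counts from other groups to pass the filter, so a lower call was hardly possible for them.

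The order of abundance changed. In naive libraries miR-5099 and miR-26a-5p led, and miR-26a-5p stood at 132456 ± 54841 CPM in naive and 38929.9 ± 10366 CPM in Th2 cells (SD, n = 3 and 3). let-7a-5p, miR-25-3p, let-7g-5p, let-7f-5p, let-7i-5p, miR-191-5p, let-7c-5p and miR-92a-3p followed, between 35933 and 14267 CPM. In Th2 libraries miR-5099 was followed by miR-182-5p, let-7a-5p, miR-191-5p, let-7d-5p, let-7f-5p, miR-26a-5p, miR-25-3p, miR-183-5p and let-7g-5p, between 65516 and 26796 CPM. miR-182-5p, miR-183-5p and let-7d-5p entered the leading 10 and let-7i-5p, let-7c-5p and miR-92a-3p left it. Neighbours in this order did not differ beyond their spread in Th2 cells, where miR-182-5p stood at 65516 ± 17000.1 and let-7a-5p at 65278 ± 17041 CPM (SD, n = 3).

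miR-182-5p and miR-183-5p of the miR-183-96-182 cluster, which is known to be induced in activated T cells and to repress Foxo1, rose together. miR-182-5p (chromosome 6, 30165962 to 30165986, minus strand) stood at 6311, 8079 and 2187 CPM in naive libraries A, B and C and at 63088, 49861 and 83600.1 CPM in Th2 libraries A, B and C. Every Th2 library lay above every naive library, with a log2 fold change of 3.64 (SE 0.54, edgeR adjusted p = 1.27e-05). miR-183-5p (chromosome 6, 30169711 to 30169732, minus strand) had 18, 4 and 0 counts in naive and 2131, 2114 and 1438 in Th2 libraries, and levels of 2417, 4039 and 0 against 30117, 24766 and 36775 CPM. Its log2 fold change was 4.01 (SE 0.70, edgeR adjusted p = 7.69e-05), again with no overlap of the groups. miR-96-5p, which lies between them, had 1 naive and 44 Th2 counts, a ratio of 2.52 (exact 95% interval 0.429 to 102), and was not tested. The calls of miR-182-5p and miR-183-5p passed in every alternative, the left-out libraries included. The STD scaling raised their log2 fold changes to 6.26 and 6.58 and so was no test of an increase.

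miR-148a-3p rose from few counts. It had 6, 0 and 1 counts in naive and 604, 1043 and 541 in Th2 libraries, or 806, 0 and 365 against 8536, 12219 and 13835 CPM. The groups did not overlap, and the log2 fold change was 4.27 (SE 0.53, edgeR adjusted p = 2.09e-06). miR-148b-3p, which has the same seed, stood at 3357, 14138 and 12394 CPM in naive and 4056, 5436 and 6009.8 CPM in Th2 libraries and was not called (log2 fold change -0.78, SE 0.45, edgeR adjusted p = 0.144). Summed over the shared seed, miR-148a-3p, miR-148b-3p and miR-152-3p did not pass (log2 fold change 0.55, SE 0.39, edgeR adjusted p = 0.244). In Th2 cells miR-148a-3p made up most of that sum, and in naive cells miR-148b-3p did.

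miR-210-3p, the miRNA induced by the hypoxia factor HIF-1, and miR-212-5p, from a transcript that responds to the factor CREB, were also among the largest increases. miR-210-3p (chromosome 7, 141221407 to 141221428, minus strand) had 7, 0 and 1 naive and 644, 987 and 595 Th2 counts. Its level was 939.9, 0 and 365 CPM in naive and 9101, 11563 and 15216 CPM in Th2 libraries, with no overlap and a log2 fold change of 4.15 (SE 0.60, edgeR adjusted p = 1.05e-05). miR-212-5p had 1, 0 and 0 naive counts and 210, 209 and 101 Th2 counts. From its single naive count the ratio of Th2 to naive was 29.8 (exact 95% interval 5.32 to 1179), and the edgeR adjusted p was 5.31e-05. The other strand, miR-212-3p, had 0 naive and 137 Th2 counts, at least 2.62-fold higher, and its neighbour miR-132-3p had 3 and 76 counts.

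**Figure D3:**
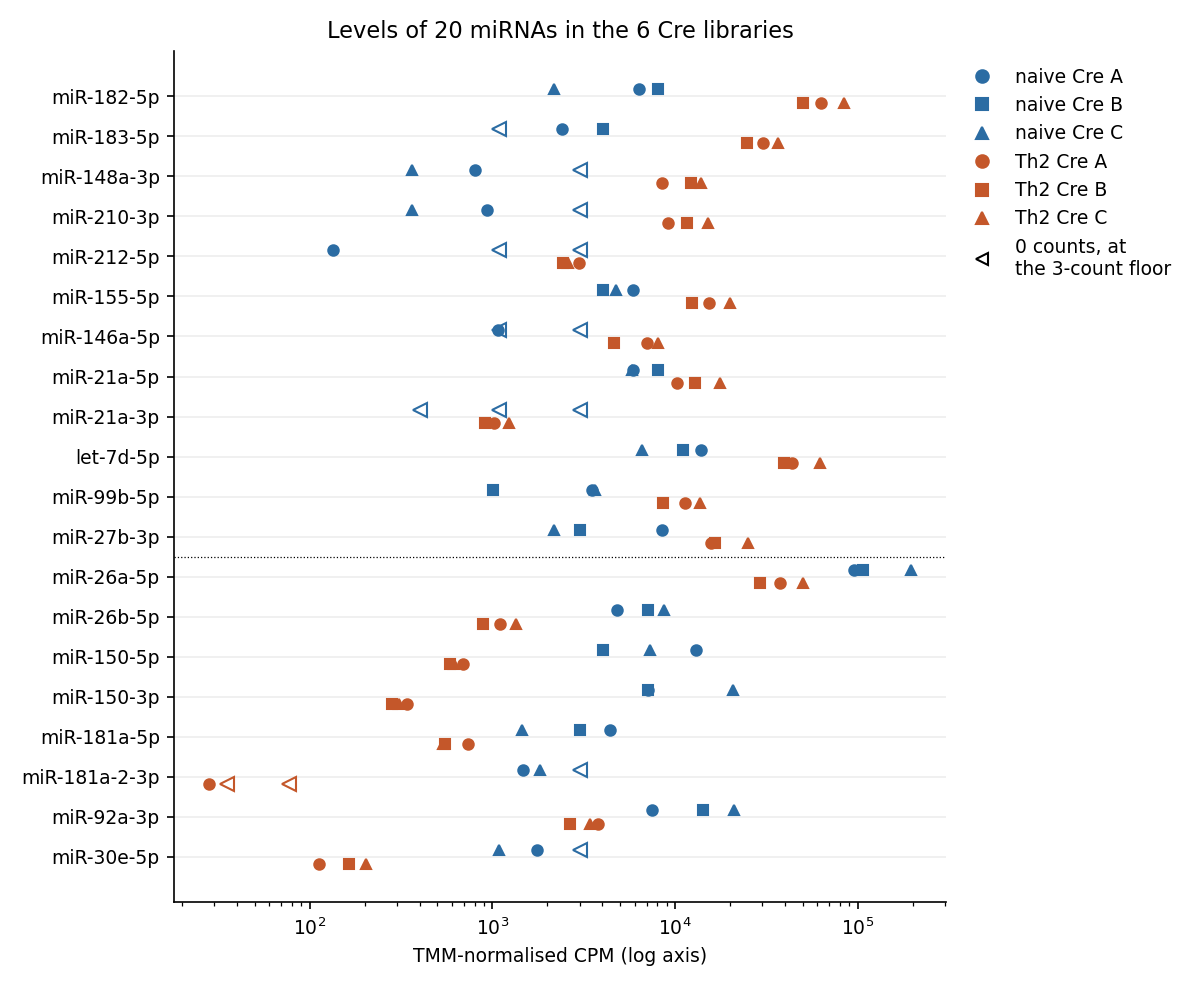
TMM-normalised CPM (horizontal axis, log scale) of 20 miRNAs in naive libraries (blue) and Th2 libraries (orange), with a symbol per library. Open triangles mark a library with 0 counts at its floor of 3 counts. The 12 miRNAs above the dotted line were called higher in Th2 cells and the 8 below it lower, and the naive libraries of miR-182-5p, at 2187 to 8079 CPM, lie below all its Th2 libraries.

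Among the miRNAs with known roles in T cell activation, miR-155-5p, miR-146a-5p and miR-21a-5p rose. miR-155-5p (chromosome 16, 84714143 to 84714165, plus strand, in an exon of Mir155hg), which is induced by antigen receptor signals and represses Maf among others, stood at 5908, 4039 and 4739 CPM in naive libraries. In Th2 libraries it stood at 15249, 12407 and 20101 CPM, all above the naive values, with a log2 fold change of 1.63 (SE 0.43, edgeR adjusted p = 0.00347). miR-146a-5p, which restrains NF-kappaB signalling through Traf6 and Irak1, had 8, 0 and 0 naive and 495, 395 and 316 Th2 counts. Only naive library A held a count of it, at 1074 CPM, and the Th2 libraries held 6996, 4628 and 8081 CPM (log2 fold change 3.32, SE 0.73, edgeR adjusted p = 0.000722). miR-21a-5p (in an exon of Vmp1), a miRNA known to be raised in activated lymphocytes, stood at 5908, 8079 and 5833 against 10232, 12875 and 17646 CPM. It was higher in all 3 Th2 libraries, with a log2 fold change of 1.10 (SE 0.38, edgeR adjusted p = 0.0195).

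The calls of miR-155-5p and miR-21a-5p were lost with fewer naive libraries. With naive libraries B and C both left out, the log2 fold change was 1.37 (edgeR adjusted p = 0.066) for miR-155-5p and 1.13 (edgeR adjusted p = 0.066) for miR-21a-5p, and neither passed. miR-21a-5p passed in 10 of 18 alternatives and was not called without naive library A, nor without naive library C. Its call was also lost with DESeq2 size factors, TMMwsp, the replicate block and thinned Th2 libraries, and without miR-5099 (log2 fold change 0.75). miR-155-5p passed in 17 of 18 alternatives, and miR-146a-5p in all 18.

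The miR-23-27-24 clusters, of which miR-27 and miR-24 are known to restrain interleukin 4 and Gata3, were mostly higher. Of the 11 listed members 6 were tested, 5 were higher and 0 lower (36.7% higher and 19.4% lower over all tested), and the median log2 fold change was 1.75 beside 0.69 over all tested. miR-27b-3p, the most abundant, stood at 8459, 3029.6 and 2187 CPM in naive and 15701, 16648 and 25190 CPM in Th2 libraries. Its log2 fold change was 1.88 (SE 0.46, edgeR adjusted p = 0.00179), without overlap. miR-23b-3p, from the same hairpin cluster as miR-27b-3p, had 10, 2 and 0 naive counts and a log2 fold change of 2.04 (SE 0.58, edgeR adjusted p = 0.00552). From the cluster on chromosome 8 miR-27a-3p changed by 1.33 and miR-23a-5p by 2.05, with 10 and 2 naive counts in all. miR-24-3p, which both clusters encode, changed by 1.62 from 11 naive counts, and its counts cannot be assigned to a cluster. miR-23a-3p had a log2 fold change of 1.27 (SE 0.63, edgeR adjusted p = 0.0873) and was not called. miR-27a-3p and miR-27b-3p share their first 18 bases, and summed over their seed the log2 fold change was 1.38 (SE 0.46, edgeR adjusted p = 0.0238). Of the 6 tested members 3 passed without naive library A and 1 without naive library C. With naive libraries B and C left out none of 7 tested members passed, at a median of 1.40.

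The let-7 family, which marks differentiated cells and is blocked by Lin28 in immature ones, changed unevenly. All 9 listed members were tested, 3 were higher and 0 lower, near the 36.7% higher over all tested, with a median log2 fold change of 0.72 beside 0.69. The median was 1.12 without naive library A, 0.33 without naive library C and 0.09 with naive libraries B and C left out. With DESeq2 size factors or TMMwsp 3 were higher and 1 lower, and after thinning of the Th2 libraries 1 was higher. let-7d-5p (in an exon of 6720427I07Rik on chromosome 13) stood at 13829.9, 11108 and 6562 CPM in naive and 43429.7, 39610 and 62323 CPM in Th2 libraries. The groups did not overlap, the log2 fold change was 2.19 (SE 0.37, edgeR adjusted p = 5.81e-05), and the call passed in every alternative. miR-98-5p (log2 fold change 1.36, SE 0.35, edgeR adjusted p = 0.00265) and let-7e-5p (log2 fold change 2.09, SE 0.74, edgeR adjusted p = 0.0211) were the other calls. let-7e-5p was not called without naive library A or without naive library C. It overlapped between groups, since naive library B held 3029.6 CPM from 3 counts.

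The most abundant let-7 members did not pass. let-7a-5p stood at 58408, 24237 and 25153 CPM in naive and 55442, 55438 and 84956 CPM in Th2 libraries (log2 fold change 0.83, SE 0.38, edgeR adjusted p = 0.0692), and let-7f-5p had a log2 fold change of 0.72. let-7g-5p, let-7i-5p, let-7c-5p and let-7b-5p had log2 fold changes of -0.25, -0.02, -0.47 and -0.53. Summed over the seed, 2004 naive and 43423 Th2 counts gave a log2 fold change of 0.21 (SE 0.33, edgeR adjusted p = 0.607). let-7a-5p, let-7b-5p, let-7c-5p, let-7d-5p, let-7g-5p and let-7i-5p each share a run of 14 to 18 bases with another tested miRNA, so their separate values are uncertain where a read was counted for several of them. Only unbroken runs were sought, and none was found for let-7e-5p, let-7f-5p or miR-98-5p. However, let-7e-5p and let-7f-5p each differ from let-7a-5p at a single base, and miR-98-5p at few, so the same doubt holds for them. Library A had the highest naive level of let-7a-5p, let-7f-5p and let-7d-5p. let-7c-5p, let-7g-5p and let-7i-5p turned positive under the STD scaling, where all 9 members were called higher.

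miR-99b-5p, which lies in the same intron of Spaca6 as let-7e-5p on chromosome 17, also rose. Its level was 3491, 1009.9 and 3645 CPM in naive and 11391, 8646 and 13682 CPM in Th2 libraries, without overlap (log2 fold change 1.84, SE 0.42, edgeR adjusted p = 0.00107). miR-125a-5p of the same cluster stood at 403, 1009.9 and 1094 against 1102, 867 and 1253 CPM and was not called (log2 fold change 0.70, SE 0.53, edgeR adjusted p = 0.284). miR-191-5p, an abundant miRNA of many tissues, stood at 16112, 26256 and 20779 against 53280.1, 42305 and 67872 CPM (log2 fold change 1.41, SE 0.42, edgeR adjusted p = 0.00826). It was not called without naive library A, without naive library C or after thinning of the Th2 libraries to the naive depths.

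Both strands of miR-150, which restrains Myb in resting lymphocytes, fell. miR-150-5p had 97, 4 and 20 counts in naive and 49, 50 and 24 in Th2 libraries, although the Th2 libraries were far deeper. Its level was 13024, 4039 and 7291 CPM in naive and 692, 586 and 614 CPM in Th2 libraries, without overlap (log2 fold change -3.81, SE 0.51, edgeR adjusted p = 3.77e-06). miR-150-3p (chromosome 7, 45121798 to 45121819, plus strand) stood at 7116, 7069 and 20779 against 339, 281 and 307 CPM (log2 fold change -5.24, SE 0.47, edgeR adjusted p = 3.19e-08). It was the call with the smallest p and remained lower in every alternative. Under the STD scaling the log2 fold change was -2.36 for miR-150-3p and -1.18 for miR-150-5p, which was then not called.

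The 3p strand was a variable part of the miR-150 counts. In the Th2 libraries it was 32.9%, 32.4% and 33.3% of the counts of both strands. In naive libraries A, B and C it was 35.3%, 63.6% and 74.0%, the value of B resting on 11 counts. In WT cells the share was 18.8% to 23.9% in naive and 20.5% to 22.3% in Th2 libraries. In AGO2 knockout cells of the same experiment as the Cre cells it was 19.8% to 45.3% in naive libraries. Their Th2 libraries, at 51.8% to 62.2%, lay above the Th2 Cre libraries. Naive Cre libraries B and C thus lay above library A, and all 6 Cre libraries above the WT ones. For miR-142a, the blood cell miRNA, the 3p strand made 72.3% of the counts in naive library A, 12.5% in B (1 of 8 counts) and 5.26% in C (1 of 19), so that library A was the highest and the order of B and C rests on single counts. The Th2 libraries held 61.7%, 68.6% and 67.7%. Of the 117 naive counts of miR-142a-3p, 115 were in library A, and it was not called (log2 fold change -0.39, SE 0.82, edgeR adjusted p = 0.703). miR-142a-5p stood at 5908, 7069 and 6562 against 3039, 2144 and 3094 CPM and was called lower (log2 fold change -1.21, SE 0.48, edgeR adjusted p = 0.0356), but passed in 6 of 18 alternatives.

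miR-26a-5p and miR-26b-5p, which lie in introns of Ctdspl and Ctdsp1 and are known to repress Ezh2, both fell. miR-26a-5p (chromosome 9, 119031811 to 119031832, plus strand for the copy listed) had more naive counts than any miRNA other than miR-5099, 707, 106 and 536. Its level was 94929, 107045 and 195394 CPM in naive and 37607, 29289 and 49894 CPM in Th2 libraries, without overlap (log2 fold change -1.77, SE 0.38, edgeR adjusted p = 0.000572). miR-26b-5p stood at 4834, 7069 and 8749 against 1102, 890.4 and 1355 CPM (log2 fold change -2.58, SE 0.32, edgeR adjusted p = 2.09e-06). The sum over their seed gave a log2 fold change of -2.08 (SE 0.33, edgeR adjusted p = 6.57e-05). Naive library A was the lowest of the 3 naive libraries for both, and its miR-5099 share was the highest. Under the STD scaling the signs turned, to 1.05 for miR-26a-5p and 0.20 for miR-26b-5p, and neither was called.

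In the miR-181 family, which raises antigen receptor sensitivity in thymocytes by repressing phosphatases, the 2 tested members were called lower (19.4% lower over all tested). Both are strands of miR-181a, so these calls do not speak for the other members. miR-181a-5p had 33, 3 and 4 naive and 52, 47 and 21 Th2 counts, or 4431, 3029.6 and 1458 against 735, 551 and 537 CPM (log2 fold change -2.39, SE 0.60, edgeR adjusted p = 0.00228). miR-181a-2-3p, the other strand of the copy on chromosome 2, had 11, 0 and 5 naive and 2, 0 and 0 Th2 counts. The ratio of naive to Th2 level was 139.7 (exact 95% interval 32.8 to 1252), with an edgeR adjusted p of 2.09e-06. Its groups overlapped because naive library B held 0 counts. miR-181d-5p went the other way in counts, from 0 to 60, at least 1.15-fold higher, and was not tested. Summed over the seed the 4 guide strands were lower (log2 fold change -2.03, SE 0.66, edgeR adjusted p = 0.0188). Of that sum miR-181a-5p held 40 of the 41 naive and 120 of the 204 Th2 counts, so the naive side is almost miR-181a-5p alone. miR-181a-5p had a log2 fold change of 0.25 under the STD scaling and was not called without naive library A.

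miR-30 members, which are abundant in resting cells of many tissues, were lower or not called. Of 8 listed members 5 were tested, 0 were higher and 3 lower (36.7% and 19.4% over all tested), and the median log2 fold change was -1.14 (1.53 under the STD scaling). miR-30e-5p (in an intron of Nfyc) stood at 1746, 0 and 1094 CPM in naive and 113, 164 and 205 CPM in Th2 libraries (log2 fold change -3.08, SE 0.63, edgeR adjusted p = 0.000392). It overlapped because naive library B held 0 counts, and it was not called without naive library A. miR-30d-5p changed by -1.14 (SE 0.35, edgeR adjusted p = 0.00952) and miR-30a-3p by -3.35 (SE 1.22, edgeR adjusted p = 0.0236), the latter from 9 naive and 16 Th2 counts. miR-30d-5p passed in 10 of 18 alternatives and was not called without naive library A, Th2 library A or Th2 library C. miR-30a-3p was not called without naive library C, and with naive libraries B and C left out its log2 fold change was -0.67 (edgeR adjusted p = 0.795). miR-30a-3p shares its first 17 bases with miR-30e-3p. The other strand of miR-30e, miR-30e-3p, was more abundant and not called, at 7385, 6059 and 15675 against 4904, 7568 and 6777 CPM (log2 fold change -0.63, SE 0.39, edgeR adjusted p = 0.174). miR-30c-5p had a log2 fold change of 0.48.

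The miR-17-92 cluster and its paralogs, which promote proliferation of lymphocytes, showed 1 call in each direction. Of 19 listed members 9 were tested, with 1 higher and 1 lower (36.7% higher and 19.4% lower over all tested). The median log2 fold change was 0.49, or -0.02 with miR-25-5p, which had 0 naive counts, at its bound. miR-92a-3p (in an exon of Mir17hg) fell from 7519, 14138 and 21143 CPM in naive to 3802, 2671 and 3427 CPM in Th2 libraries, without overlap (log2 fold change -2.08, SE 0.40, edgeR adjusted p = 0.00025, and 0.81 under the STD scaling). miR-25-3p, which has the same seed and comes from the Mcm7 cluster, stood at 23363, 22217 and 50671 against 27742, 27672 and 40355 CPM and was not called (log2 fold change -0.02, SE 0.37, edgeR adjusted p = 0.957). The sum over that seed did not pass (log2 fold change -0.65, SE 0.31, edgeR adjusted p = 0.081). miR-19b-3p had 1, 0 and 0 naive and 55, 43 and 48 Th2 counts (log2 fold change 3.13, SE 1.38, edgeR adjusted p = 0.0588). The member called higher was miR-106b-3p, with 1, 0 and 0 naive and 51, 62 and 37 Th2 counts and a ratio of 8.59 (exact 95% interval 1.52 to 342). It was not called without naive library A or without naive library C. miR-17-5p had 1 naive and 54 Th2 counts and was not tested, so that its change was not detectable at this depth.

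Further decreases were in the miR-669 group, in miR-3962 and in miR-1843a-5p. Of the 80 listed miRNAs of the cluster in an intron of Sfmbt2 3 were tested and called lower, beside 19.4% lower over all tested (miR-669a-5p, miR-669p-5p and miR-669c-5p). miR-669c-5p passed in 9 of 18 alternatives and was not called without naive library A or when any of the 3 Th2 libraries was left out. miR-669a-5p and miR-669p-5p had identical counts in every library and count as a single measurement. They stood at 4431, 5049 and 5833 against 1244, 1371 and 1559.99 CPM (log2 fold change -1.85, SE 0.28, edgeR adjusted p = 1.56e-05, and 0.91 under the STD scaling). miR-3962 stood at 1074, 2019.7 and 4739 CPM in naive and 240.3, 211 and 230.2 CPM in Th2 libraries (log2 fold change -3.34, SE 0.62, edgeR adjusted p = 0.000138), while let-7g-5p, with which it shares 17 bases, had a log2 fold change of -0.25. miR-1843a-5p (in an intron of Dcaf5 and an exon of Scarna3b) had a log2 fold change of -2.25 (SE 0.46, edgeR adjusted p = 0.000427). Its near copy miR-1843b-5p had 14 naive and 31 Th2 counts and was not tested. miR-5099 fell from 608247, 147439 and 144723 to 106263, 67341 and 110785 CPM (log2 fold change -1.67, SE 0.66, edgeR adjusted p = 0.0346), and it was not called without naive library A or when any of the 3 Th2 libraries was left out.

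4 called miRNAs had 0 counts in all 3 naive libraries, so that their increase can be given only as a bound against 3 counts over the naive group. miR-351-5p, from the X-linked cluster that also holds miR-322, had 75, 86 and 42 Th2 counts and was at least 3.88-fold higher. miR-21a-3p, the other strand of miR-21a, had 72, 78 and 48 Th2 counts and was at least 3.78-fold higher. miR-130b-5p was at least 1.99-fold higher and miR-322-3p at least 1.85-fold higher. The edgeR adjusted p was 0.00127, 0.000556, 0.011 and 0.0226. Without naive library A neither miR-130b-5p nor miR-322-3p was called, and without naive library C miR-322-3p was not. miR-542-5p of the same cluster as miR-351-5p was lower (log2 fold change -1.73, SE 0.69, edgeR adjusted p = 0.0356), but passed in 9 of 17 alternatives and was not called without naive library C, which held 12 of its 19 naive counts. In all, 322 miRNAs had counts in Th2 libraries alone and 15 in naive libraries alone. The latter held at most 4 counts each (miR-30c-2-3p), and the depths differ.

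A further 9 called miRNAs had 1 to 3 naive counts in all. miR-6538 had 1, 0 and 0 naive and 387, 265 and 236 Th2 counts, a ratio of 50.9 (exact 95% interval 9.10 to 2011). miR-700-3p (in an exon of Rcan3) had 1, 0 and 0 and 133, 112 and 81 counts, a ratio of 18.7 (exact 95% interval 3.33 to 739.7). miR-296-3p had 0, 0 and 1 and 69, 119 and 55 counts, a ratio of 13.9 (exact 95% interval 2.47 to 552). Each interval lies above 1, and each rests on a single naive count. miR-296-3p was not called without naive library A. miR-6240 and miR-6236 rested on 11 and 8 naive counts and had log2 fold changes of 4.31 (SE 0.57, edgeR adjusted p = 3.77e-06) and 3.70 (SE 0.65, edgeR adjusted p = 7.61e-05). The sequences listed for miR-6538, miR-6240 and miR-6236 have 19, 26 and 19 bases. Whether these 3 entries are true miRNAs was not tested.

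**Figure D4:**
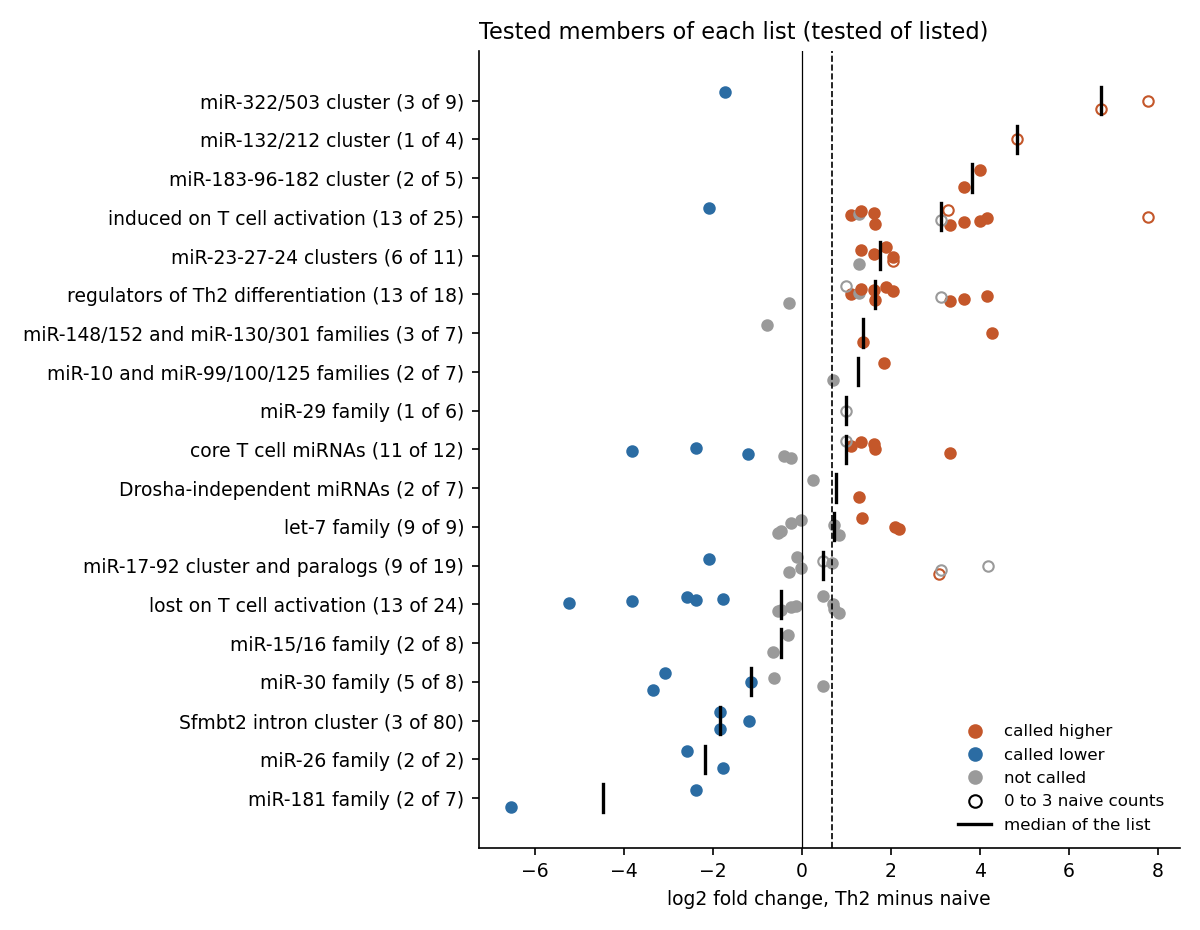
Log2 fold change from naive to Th2 cells (horizontal axis) of the tested members of each list (vertical axis, with tested of listed members), coloured by call and open where the naive libraries held 0 to 3 counts in all. Black ticks are the medians of the lists, and the dashed line is the median of 0.69 over the 98 miRNAs. In the miR-26, miR-181 and Sfmbt2 intron lists every tested member was called lower. The calls in the miR-30 list and in the list lost on activation were also all lower.

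Counts over broader lists of known T cell miRNAs are given beside the shares of 36.7% higher and 19.4% lower over all tested. The list of miRNAs known to be induced on activation held 10 higher and 1 lower of 13 tested, among 25 listed, with a median log2 fold change of 3.13, or 1.92 with miR-21a-3p at its bound. The higher members were miR-155-5p, miR-21a-5p, miR-21a-3p, miR-182-5p, miR-183-5p, miR-146a-5p, miR-210-3p, miR-7a-5p, miR-27a-3p and miR-24-3p. The lower member was miR-92a-3p, and miR-19b-3p and miR-23a-3p were not called. The list of miRNAs known to be lost on activation held 0 higher and 5 lower of 13 tested, among 24 listed, with a median of -0.47 that became 2.22 under the STD scaling. The lower members were miR-150-5p, miR-150-3p, miR-26a-5p, miR-26b-5p and miR-181a-5p. The list of regulators of Th2 differentiation held 9 higher and 0 lower of 13 tested, among 18 listed, with a median of 1.63. The tested regulators that did not pass were miR-19b-3p, miR-23a-3p, miR-29a-3p and miR-128-3p. Without naive library C 5 of 13 tested regulators were higher, at a median of 1.33, and without naive library A 7, at a median of 2.93. With naive libraries B and C left out, 3 of 15 tested regulators passed, all higher, and 7 of 18 tested induced miRNAs were higher and 1 lower.

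The core T cell list gave 5 higher and 3 lower of 11 tested, among 12 listed, with a median of 0.998. It was 3 higher and 1 lower without naive library A (median 1.82), 2 and 2 without naive library C (0.39), 1 and 2 with naive libraries B and C left out (0.32), and 3 and 3 without miR-5099 (0.09). miR-29a-3p, which represses Tbx21 and Eomes in helper cells, had 3, 0 and 0 naive and 22, 45 and 31 Th2 counts, and its change was not detectable at this depth. Neither tested member of the miR-15/16 family, which restrains the cell cycle, passed, with log2 fold changes of -0.31 for miR-16-5p and -0.65 for miR-15b-5p. Among the 7 listed Drosha-independent miRNAs 2 were tested, and miR-320-3p was higher (log2 fold change 1.28, SE 0.49, edgeR adjusted p = 0.0306). Its naive levels of 1746, 0 and 6197 CPM overlapped the Th2 levels of 6162, 6877 and 8235 CPM, and it was not called without naive library A or without naive library B. The 3 counted members of the cluster of miR-221 and miR-222 had 0 naive counts and 35 Th2 counts in all, and none was tested.

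Counts were also summed over miRNAs with the same seed. This left 83 features, of which 71 had a seed in the sequences used and 12 were single names that were not grouped, among them miR-150-5p, miR-30d-5p, miR-23b-3p, miR-669a-5p and miR-669p-5p. Of the 83, 40 were called (48.2%), 23 higher and 17 lower. This split depended on the scaling, with 35 higher and 11 lower by library size alone, 14 and 19 with TMMwsp, and 15 and 22 without miR-5099. The features called lower with the smallest p were miR-150-3p, miR-669a-5p, miR-669p-5p, miR-181a-2-3p, miR-150-5p and miR-3962, each a single miRNA, with miR-669a-5p and miR-669p-5p holding identical counts. Those called higher were miR-6240 with miR-330-3p, miR-6538, miR-210-3p, miR-182-5p, miR-212-5p and miR-6236. The family of miR-125a-5p, miR-351-5p and miR-125b-5p was higher (log2 fold change 1.36, SE 0.53, edgeR adjusted p = 0.0421), although miR-125a-5p alone was not called. Of its counts miR-351-5p, which was called alone, held 203 of 416 in Th2 and 0 of 7 in naive libraries. The sum of miR-30c-5p, miR-30e-5p and miR-30a-5p, which does not include miR-30d-5p, was not called (log2 fold change -0.80, SE 0.39, edgeR adjusted p = 0.089).

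The change in Cre cells was set beside that of WT cells at day 7, which share no library with it. The WT calls, log2 fold changes and CPM are from a fit and scaling of all 36 libraries. Those of Cre cells above are from the 14 libraries of the AGO2 experiment, so levels of the 2 are not on the same scale. Of the 98 miRNAs, 67 were called in WT cells, and 36 of the 55 Cre calls (65.5% of them and 53.7% of the WT calls) were called in the same direction there. miR-92a-3p and miR-320-3p were called in opposite directions. miR-92a-3p stood at 929 ± 66.0 CPM in naive WT and 1661 ± 365 CPM in Th2 WT cells (SD, n = 4 and 4). Across the 98 miRNAs the log2 fold changes had a Pearson correlation of 0.66, a description over miRNAs of the same libraries. miR-182-5p, miR-183-5p, miR-210-3p and miR-148a-3p rose by 2.10, 3.93, 5.45 and 1.33 on the log2 scale in WT cells, and miR-181a-5p changed by -2.46.

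The difference between the changes was tested in a fit of all 36 libraries, in which 49 of 376 miRNAs were called (13.0%), 40 with a higher and 9 with a lower change in Cre cells. The 5 leading differences in each direction are the following. miR-150-3p differed by -4.00 (SE 0.39, edgeR adjusted p = 1.62e-11), and miR-150-5p by -2.76 (SE 0.45, edgeR adjusted p = 9.24e-06). In WT cells miR-150-3p stood at 7821 ± 636 CPM in naive and 4375 ± 469.8 CPM in Th2 libraries (SD, n = 4 and 4), a smaller fall. miR-3962, miR-1843b-5p and miR-92a-3p differed by -2.63, -2.60 and -2.46. let-7d-5p differed by 2.66 (SE 0.32, edgeR adjusted p = 1.04e-08), and it stood at 15316 ± 1804 and 13255 ± 1069 CPM in naive and Th2 WT cells. miR-146a-5p differed by 3.99 (SE 0.62, edgeR adjusted p = 3.94e-06), with 7125 ± 718 CPM in naive WT cells. miR-191-5p differed by 2.25. miR-5100 and miR-181d-3p had fitted differences of 4.27 and 13.06, which rest on 2 and 0 naive Cre counts and are not measured sizes. The ratio of Th2 to naive Cre level of miR-5100 was 1.66 (exact 95% interval 0.440 to 14.0).

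Of the 376 miRNAs in that fit 269 had 3 or fewer naive Cre counts, among them 17 of the 49 calls. The median difference over the 376 was 1.69 in edgeR and -1.32 in DESeq2, and DESeq2 called 33.2% of them, 25 higher and 100 lower, so the balance of directions in this test depends on the tool. It also moved with the scaling, to 31 higher and 13 lower by library size and 28 and 16 without miR-5099. Genotype, days of culture, the experiment and depth differ together between these groups and cannot be told apart.

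**Figure D5:**
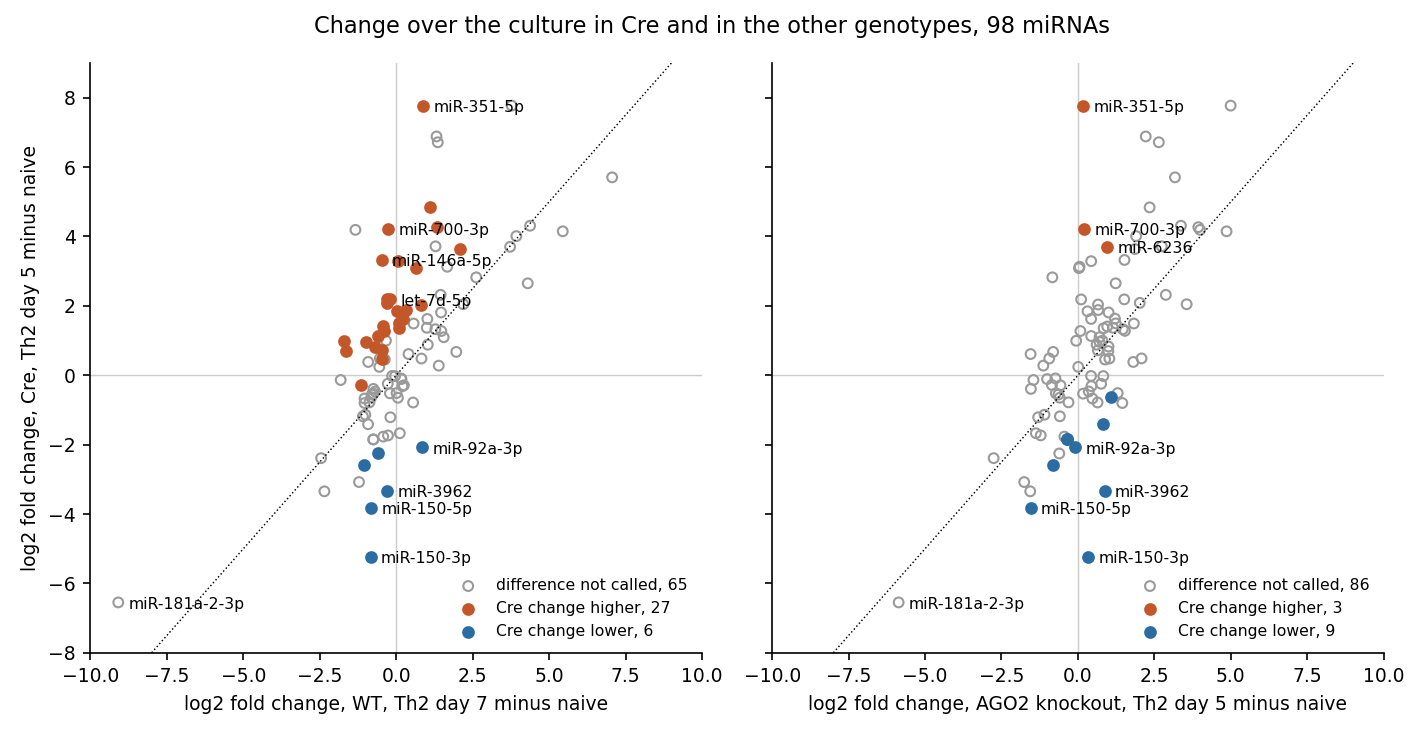
Log2 fold change from naive to Th2 day 5 in Cre cells (vertical axes) against that in WT cells at day 7 (left) and in AGO2 knockout cells at day 5 (right) for the 98 tested miRNAs, with filled points where the difference between the changes was called and a dotted line of equal change. Of the 98, 27 differed upward and 6 downward from WT, and 3 and 9 from AGO2 knockout, with miR-150-3p far below the line in both panels.

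Within the same experiment the change was set beside that of AGO2 knockout cells. There 50 of the 98 miRNAs were called, and 31 of the 55 Cre calls (56.4% of them and 62.0% of the knockout calls) were called in the same direction. miR-1198-5p alone was called in opposite directions. Its Cre call passed in 9 of 18 alternatives and was lost without naive library C, Th2 library A or Th2 library C. The test of the difference called 12 of 98 (12.2%), 3 with a higher and 9 with a lower change in Cre cells. miR-150-3p differed by -5.58 (SE 0.57, edgeR adjusted p = 2.58e-07), and in knockout cells it stood at 7321 ± 2249.9 CPM in naive and 9243 ± 1351 CPM in Th2 libraries (SD, n = 4 and 4). miR-3962 differed by -4.21 (SE 0.93, edgeR adjusted p = 0.00887) and miR-26b-5p by -1.76 (SE 0.41, edgeR adjusted p = 0.0105). miR-1198-5p and miR-669p-5p differed by -2.25 and -1.48. The 3 higher fitted differences were in miR-700-3p (4.04), miR-351-5p (7.60) and miR-6236 (2.75), which had 1, 0 and 8 naive Cre counts, so that those of miR-700-3p and miR-351-5p are not measured sizes. The count rests on single libraries: it was 2 without naive Cre library C and 5 without Th2 Cre library C. With DESeq2 size factors the split was 8 and 9, with TMMwsp 5 and 9, and it was 6 and 10 without miR-5099, 10 and 7 in DESeq2, and 9 and 3 with no filter on low counts.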

How the data were processed

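MiRNA libraries were made and counted by the authors. The deposited values are raw counts per miRNA entry and sample, with the genome build GRCm38 named by the submitters' processing notes. No aligner or counter is given in the sources used here. The 9 STD entries were dropped, and of the 2110 others the row with the highest total was kept for each of the 82 names with several loci, leaving 1966 names. Counts were fitted with edgeR 4.0.16 (R 4.3.3; TMM, filterByExpr with a minimum count of 10, glmQLFTest) on the 14 libraries of the AGO2 experiment, in which the 4 groups share an estimate of the spread, with Benjamini-Hochberg adjustment over all miRNAs tested. Seed families are sums over bases 2 to 8. The scripts were tested on simulated data.

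The members and lists were chosen with earlier results of these data known. Named were the 12 largest called increases and decreases with at least 20 counts in the higher group, the 10 most abundant miRNAs of each group, a core T cell list, up to 5 called members by p of each list, 6 seed families per direction and 5 differences per direction. Others named for a pair, strand or list were chosen after their values were seen. Alternatives were other scalings, no filter, DESeq2 1.42.0, left-out libraries, a replicate block, the 6 libraries alone, thinned Th2 libraries and all locus rows. Hosts are from GENCODE annotation on GRCm38.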

Additional observations from a re-analysis of the deposited data

Results flagged for a closer look

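The changes in Cre cells differed from those of other genotypes by a test of the difference itself for these miRNAs, each given as the change in Cre cells minus the other change on the log2 scale. Against WT cells at day 7 the Cre change was higher for let-7d-5p by 2.66, miR-191-5p by 2.25, and miR-146a-5p by 3.99. The fitted differences of 4.27 for miR-5100 and 13.06 for miR-181d-3p rest on 2 and 0 naive Cre counts and are not measured sizes. The difference was -4.00 for miR-150-3p, -2.76 for miR-150-5p, -2.63 for miR-3962, -2.60 for miR-1843b-5p and -2.46 for miR-92a-3p.

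Against AGO2 knockout cells at day 5 the difference was 2.75 for miR-6236. The fitted values of 4.04 for miR-700-3p and 7.60 for miR-351-5p rest on 1 and 0 naive Cre counts and are not measured sizes. It was -5.58 for miR-150-3p, -4.21 for miR-3962, -1.76 for miR-26b-5p, -2.25 for miR-1198-5p and -1.48 for miR-669p-5p. miR-150-3p and miR-3962 were lower in both comparisons, which share the Cre libraries.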

How the results depend on the processing

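The count of 55 calls stayed within 1.5 times under every scaling other than the STD entries, which gave 84, and under every left-out library, with 42 to 58 calls. The calls were not all the same ones: of the 55, 34 were called in the same direction without naive library A, 39 without naive library C and 47 to 51 without any other library. It was 32 of 82 tested when the Th2 libraries were thinned to the naive depths, 74 of 620 with no filter on low counts and 43 with naive libraries B and C left out. The seed families gave 30 to 46 calls with a library left out and 73 under the STD scaling. For the difference from WT cells 13.0% of the tested miRNAs were called, 8.91% to 12.1% with a library left out and 33.2% in DESeq2. For the difference from AGO2 knockout cells 12 were called, and 2 to 18 with a library left out. The cause of these changes was not tested. Under the STD scaling the log2 fold change turned positive, at 0.20 for miR-26b-5p, 0.25 for miR-181a-5p, 0.53 for miR-1843a-5p, 0.81 for miR-92a-3p, 0.91 for miR-669p-5p, 0.91 for miR-669a-5p, 1.05 for miR-26a-5p, 0.72 for miR-5099, 1.51 for miR-142a-5p, 2.81 for miR-25-3p, 2.53 for let-7g-5p, 2.59 for let-7i-5p, 2.22 for let-7c-5p, 2.05 for miR-142a-3p, 1.11 for miR-542-5p, 1.53 for miR-30d-5p, 1.50 for miR-669c-5p and 1.35 for miR-1198-5p. The replicate block gave 52 calls, 31 seed families and 3 differences from AGO2 knockout cells. For pairing by letter, deviations of log CPM from the group mean were correlated between naive and Th2 libraries over the tested miRNAs. For the same letter the correlation was 0.02 for A, -0.14 for B and -0.16 for C. These values show no sign of pairing, but shallow naive libraries give the check little power to show it. Depth limits what naive libraries can show: a count of 0 over the group allows 268 CPM.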
